A study of Drosophila melanogaster with 12 samples.

Results

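Early enterocytes of the Drosophila posterior midgut carrying an RNA interference (RNAi) transgene against svb were compared with early enterocytes expressing SvbACT, the constitutive activator form of the Shavenbaby (Svb) protein. The comparison used 6 of the 12 libraries of the series, the 3 from each of these crosses, and the number in each count column's name paired a svb RNAi library with a SvbACT library. Both crosses shared the myoIA-Gal4, UAS-GFP; tubGal80TS parent, in which Gal4 is driven by an enterocyte promoter and is held inactive by a temperature-sensitive Gal80 until the shift to 29 °C. The other parent carried UAS-SvbRNAi or UAS-SvbACT::GFP, so the transgene and the stock it came from cannot be told apart. All flies were virgin females of 9 days of age with 6 days of induction, each library came from GFP-sorted cells of pooled posterior midguts (regions R3 to R5), and replicates were made on different calendar days. The remaining libraries, 3 from the Canton-S control cross and 3 from the UAS-Svb3Kmut::GFP cross (labelled SvbREP, the repressor form), entered the estimate of the spread and are given below only as levels.

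Svb is a zinc-finger transcription factor encoded by the gene ovo. It is made as a repressor, and in the embryonic epidermis small peptides of the tal gene recruit the ubiquitin ligase Ubr3, after which the proteasome trims Svb to a shorter activator. Svb is known in flies for shaping epidermal cell extensions and, in the adult gut, for acting in stem cells and their enterocyte daughters. The comparison therefore sets cells in which the factor was targeted beside cells given its activator form, without the control cross between them.

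Library totals ran from 3209182 to 8222486 counts in the svb RNAi libraries and from 4695678 to 8881488 in SvbACT, and values below are in CPM, read counts relative to each library's total after TMM scaling. At these depths 3 counts, the floor used for genes without reads, amounted to 0.34 to 0.854 CPM in these 6 libraries. Spearman correlations across genes ran from 0.9522 to 0.9656 within svb RNAi, 0.9631 to 0.9736 within SvbACT and 0.9311 to 0.9725 between them. Of the marker lists examined, enterocyte identity genes summed to 1100.3 to 1426.2 CPM in svb RNAi and 1251.4 to 1345.5 CPM in SvbACT, with 8 of 8 genes measured. Progenitor markers summed to more, 3674.6 to 4527.5 CPM in svb RNAi and 5080.8 to 7596 CPM in SvbACT. The enteroendocrine list summed to 565.84 to 1139.9 CPM in svb RNAi and 459.15 to 630.25 CPM in SvbACT. Lists differ in their members, so these sums do not give shares of cell types, and the purity of the sorted cells was not tested. Of 7 fat body and 5 tracheal markers 1 each passed the filter on low counts: Fbp1, at most 7.27 CPM, and serp, at most 2.61 CPM in any of the 6 libraries. The 17 tested visceral muscle markers summed to 1350.0 to 1958.5 CPM in svb RNAi and 1655.8 to 1776.9 CPM in SvbACT.

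The gene ovo (FBgn0003028; dm6 X:5048273-5070929, plus strand), which encodes Svb, was measured first as a check of the labels. It had 78, 65 and 21 counts in the svb RNAi libraries 1, 2 and 3, or 14.8, 7.38 and 5.98 CPM, and 1604, 1612 and 493 counts in SvbACT, or 237, 183 and 105 CPM. The groups did not overlap, and every svb RNAi library lay far below every SvbACT library. The log2 fold change, svb RNAi minus SvbACT, was -4.31 (SE 0.29, edgeR quasi-likelihood adjusted p 5.75e-06). The control libraries held 11.9, 2.10 and 1.30 CPM, so ovo was not lower in the svb RNAi libraries than in control, and these are called the svb RNAi-labelled libraries from here on. SvbREP libraries held 536, 226 and 178 CPM. Counts per gene do not separate reads of the resident gene from reads of a transgene that carries ovo sequence. This holds for SvbACT and SvbREP and may hold for the RNAi transgene, which was not tested. The values therefore do not give the level of the resident gene. Exons of ovo also share positions with the noncoding gene lncRNA:CR44833 on the opposite strand, which went the other way (13.1, 7.95 and 9.11 CPM against 3.10, 0.793 and 6.59 CPM, log2 fold change 1.73, adjusted p 0.0736). The control libraries held 1.70, 1.15 and 1.04 CPM of lncRNA:CR44833, below every svb RNAi-labelled library.

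Of 8296 genes tested, 498 (6%) differed at an edgeR quasi-likelihood adjusted p under 0.05, 140 of them higher (1.69%) and 358 lower (4.32%) in the svb RNAi-labelled libraries. The largest differences concerned single genes, several of them near 0 in one group, such as CG6912 and LManIV on the higher side and blanks and mfr on the lower side. Medians of the gene lists were smaller in size than these differences, although some of the leading genes, LManIV among them, are themselves list members. Where called, maltase, amylase and mannosidase genes (7 of 17) and enteroendocrine genes (3 of 12) were higher. Ribosomal protein (25 of 74) and progenitor genes (3 of 8) were lower where called. The median log2 fold change over all genes was 0.02, with quartiles at -0.27 and 0.31. Among the called genes 28 were higher and 50 lower by more than 2 log2 units, and 71 and 140 by more than 1. In 463 of the 498 the 2 groups did not overlap, against 20.9% of all genes tested.

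These calls rest on the pairing by the number in the column names. Without the pair in the model 211 genes were called (2.54%), 38 higher (0.458%) and 173 lower (2.09%), and all 211 were among the 498 with the same direction. Scaling by library totals in place of TMM moved the median of all genes to 0.18 and the split to 274 higher and 218 lower, 55.69% higher against 28.1%. Medians of several lists lay within about that shift of 0. The median moved from -0.07 to 0.10 for septate junction and polarity genes, from -0.04 to 0.12 for apoptosis genes and from -0.06 to 0.10 for siRNA and miRNA pathway genes, changing sign in each. It moved from -0.17 to -0.01 for JAK/STAT genes and from -0.19 to -0.04 for UDP-glycosyltransferases, and from 0.01 to 0.17 for V-ATPase subunits, 0.02 to 0.18 for piRNA pathway genes and 0.13 to 0.29 for lipid genes.

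**Figure D1:**
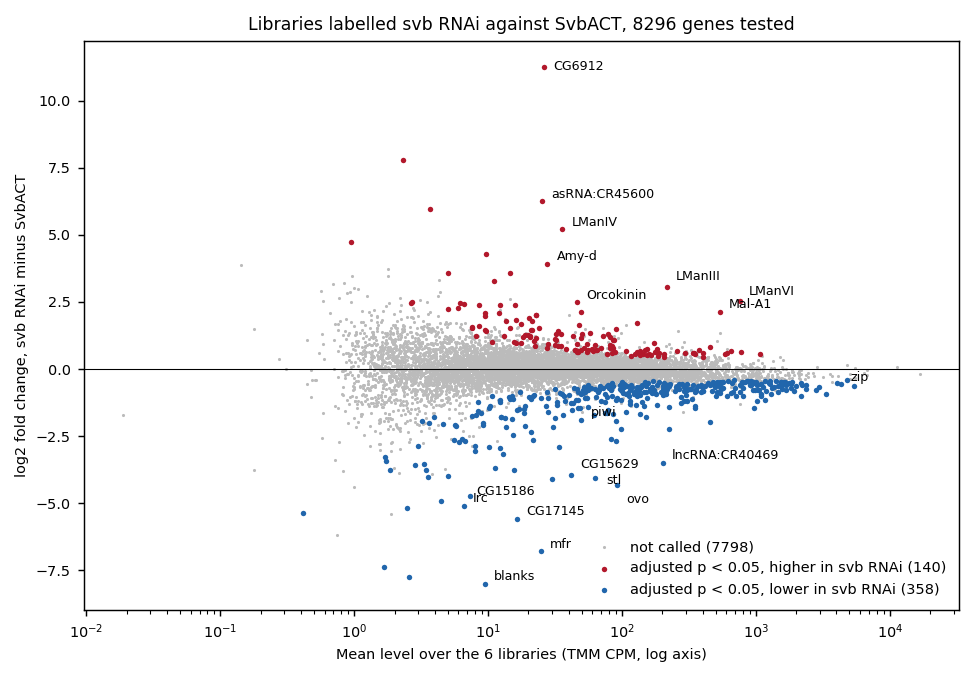
Log2 fold change (svb RNAi minus SvbACT) of 8296 genes against their mean level over the 6 libraries in TMM CPM on a log axis. Grey points are genes not called, red points the 140 genes higher and blue points the 358 genes lower in the svb RNAi-labelled libraries at adjusted p under 0.05. Fitted values of genes without reads in one group, such as CG6912, depend on the prior count of the model.

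CG6912 and its overlapping noncoding gene asRNA:CR45600 were the genes furthest on the higher side. CG6912 (FBgn0038290; dm6 3R:15135138-15137004, minus strand) had 50.7, 62.1 and 44.1 CPM in the svb RNAi-labelled libraries and no count in any SvbACT library. Against the floor of 3 counts per library it was at least 110.5-fold higher in the svb RNAi-labelled libraries (adjusted p 2.26e-06). It held 76.7, 82.9 and 67.5 CPM in control and 0, 0.369 and 0 CPM in SvbREP, so the svb RNAi-labelled libraries lay near control while both crosses with a Svb form were at or near 0. The neighbour asRNA:CR45600 (3R:15136985-15140121) had 40.5, 41.4 and 66.6 CPM against 0.443, 0 and 1.91 CPM (log2 fold change 6.24, SE 0.59, adjusted p 7.17e-05), with 59.0 to 74.7 CPM in control. Its exons share positions with CG6912 and, on the opposite strand, with CG3984 and CG3987. CG3984 (3R:15137148-15139007, plus strand; named after its values were seen) had 9.12, 5.45 and 7.41 CPM against 0, 0.226 and 0 CPM, a ratio of 70.5 with a counting interval of 19.1 to 588, and CG3987 was not called (log2 fold change 0.90, adjusted p 0.186). These genes share exon positions and cannot be counted as independent, since the use of strand in counting is not given in the sources used here.

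NKCC and CngB, both of membrane transport, were also among the 12 highest genes. NKCC, a sodium-potassium-chloride cotransporter, had 27.6, 22.3 and 29.6 CPM in the svb RNAi-labelled libraries and 1.92, 0.679 and 5.32 CPM in those of SvbACT (log2 fold change 3.58, SE 0.54, adjusted p 0.00253). The control libraries, at 7.01 to 8.29 CPM, lay between the svb RNAi-labelled and the SvbACT libraries. CngB, a subunit of a cyclic nucleotide-gated channel, had 7.6, 11.5 and 14.2 CPM against 1.48, 2.15 and 2.55 CPM (log2 fold change 2.42, adjusted p 0.0131). Its control libraries spread from 4.14 to 21.2 CPM, across the whole range of the svb RNAi-labelled libraries. The V-ATPase subunit gene Vha68-1, which helps acidify compartments, was the only called gene of 17 V-ATPase subunits, a share of 5.88% against the background of 6%, at 10.3, 9.76 and 14.2 CPM against 4.13, 4.19 and 6.38 CPM (log2 fold change 1.23, adjusted p 0.0460, 0.105 without the pair).

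The unnamed genes CG17321, CG9021 and CG18765 were among the 12 highest as well. CG17321 had 20.0, 16.9 and 18.2 CPM in the svb RNAi-labelled libraries and 0.590, 1.02 and 1.28 CPM in those of SvbACT (log2 fold change 4.27, SE 0.68, adjusted p 0.00323). CG9021 had 29.1, 19.3 and 12.5 CPM against 2.07, 2.49 and 1.49 CPM (log2 fold change 3.28, adjusted p 0.00122). Both genes were low in control as well, at 0.565 to 4.39 CPM and 1.88 to 2.60 CPM, so the svb RNAi-labelled libraries stood above the other 3 genotypes. CG18765 had 15.4, 27.7 and 17.9 CPM against 1.33, 5.55 and 5.10 CPM (log2 fold change 2.40, adjusted p 0.0294, 0.0651 without the pair).

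On the lower side, blanks and mfr had almost no reads in the svb RNAi-labelled libraries. blanks (3L:5497523-5498958), which encodes a double-stranded RNA-binding protein known from the testis, had 1 count in all in the svb RNAi-labelled libraries and 11.1, 26 and 19.4 CPM in SvbACT. The ratio of SvbACT to svb RNAi was 343, with a counting interval of 61.2 to 13575, and the adjusted p was 5.08e-05. Control libraries held at most 0.520 CPM and SvbREP libraries 12.5 to 20.5 CPM, so both crosses with a Svb form had reads of blanks and the other crosses had almost none. mfr (3L:8905918-8912671), a ferlin-family gene known from sperm, had 0.570, 0 and 1.14 CPM against 52.0, 55.9 and 38.5 CPM (log2 fold change -6.79, SE 0.70, adjusted p 0.000406). Its control libraries held no count and its SvbREP libraries at most 0.533 CPM, so SvbACT stood above all 3 other genotypes. Exons of mfr share positions with Tsp66E on the opposite strand.

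Irc, nAChRalpha6 and IRSp53 were likewise lower in control than in SvbACT and SvbREP, by their values in each library. Irc, an immune-regulated catalase that removes reactive oxygen in the gut, had 0.760, 0.227 and 0 CPM in the svb RNAi-labelled libraries and 17.4, 8.27 and 13 CPM in those of SvbACT (log2 fold change -5.09, SE 0.58, adjusted p 0.000358). Control held 2.48 to 4.94 CPM and SvbREP 14.6 to 20.1 CPM. nAChRalpha6, a nicotinic acetylcholine receptor subunit, had 0.570, 0.227 and 1.14 CPM against 9.30, 14.9 and 17.4 CPM (log2 fold change -4.72, adjusted p 0.00276). IRSp53, which couples membrane curvature to actin, had 1.90, 2.16 and 0.285 CPM against 24.6, 13.4 and 24.9 CPM (log2 fold change -3.68, adjusted p 0.000658), with 2.64 to 3.90 CPM in control. Groups that do not overlap were a condition for choosing these 3 genes.

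For another group of leading genes control was high as well, and the svb RNAi-labelled libraries stood apart at the low end. stl, an ADAMTS-family gene known from the formation of ovarian follicles, had 8.17, 4.31 and 9.11 CPM in the svb RNAi-labelled libraries and 140, 71.4 and 145 CPM in those of SvbACT (log2 fold change -4.07, SE 0.35, adjusted p 5.41e-05). Control held 223 to 377 CPM. The noncoding gene lncRNA:CR40469 (X:122493-122706) had 44.1, 42.3 and 13.4 CPM against 582, 226 and 309 CPM (log2 fold change -3.50, adjusted p 5.99e-05), with 655 to 1152 CPM in control. In both genes the SvbACT libraries also lay below the control libraries, a difference not tested here. CG15186 had 6.65, 1.82 and 1.71 CPM against 50.6, 49.3 and 71.2 CPM (log2 fold change -4.08, adjusted p 5.99e-05), and its control libraries lay at 52.9 to 86.8 CPM. CG17145 had 1.33, 0 and 1.14 CPM against 34.8, 21.7 and 40.0 CPM (log2 fold change -5.57, SE 0.75, adjusted p 0.00117), with 24.4 to 86.2 CPM in control. CG15629 had 5.32, 3.63 and 6.84 CPM against 85.2, 63.9 and 84.0 CPM (log2 fold change -3.94, adjusted p 5.99e-05), with 36.6 to 55.2 CPM in control. That the groups of these 5 genes did not overlap was a condition for choosing them.

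**Figure D2:**
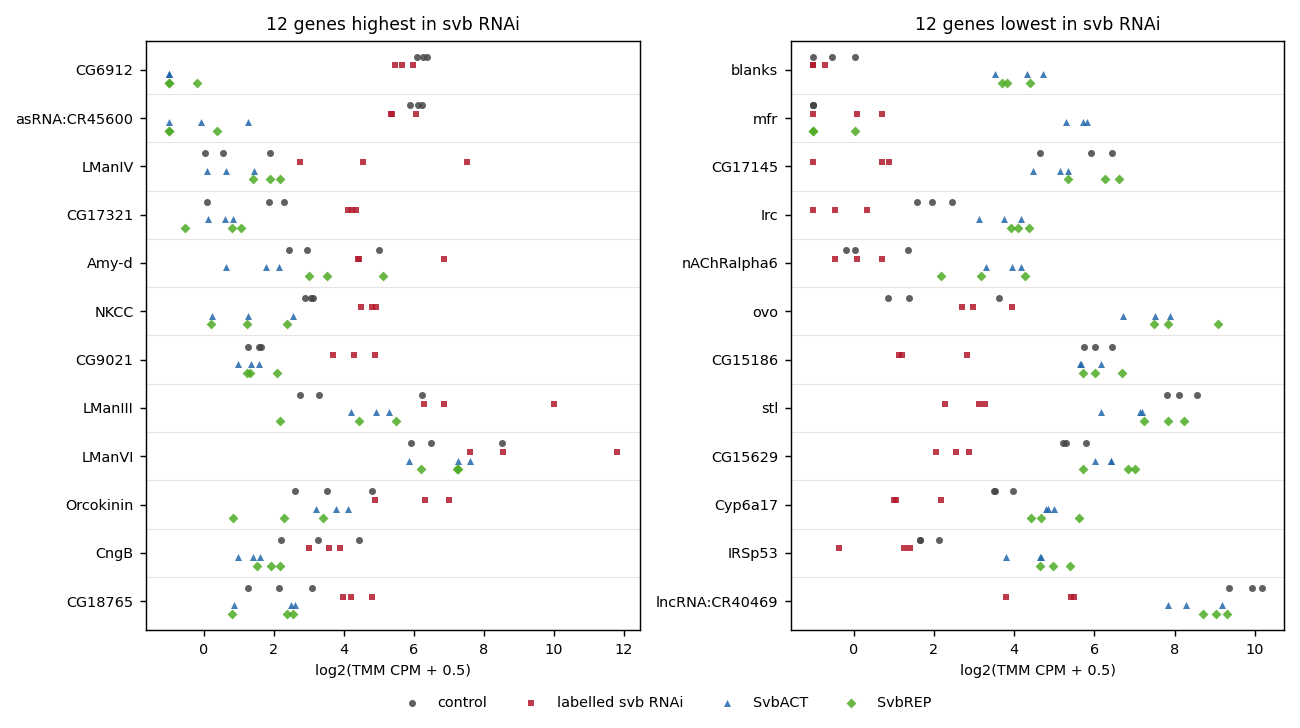
Levels in all 12 libraries, as log2(TMM CPM + 0.5), of the 12 called genes highest and the 12 lowest in the svb RNAi-labelled libraries relative to SvbACT. Each point is a library, coloured by genotype. CG6912 sits at the lowest position in SvbACT and SvbREP, blanks at the lowest position in control and svb RNAi, and library 1 of svb RNAi lies to the right of the others for the LMan genes.

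Genes of enzymes that cut sugar chains were higher in the svb RNAi-labelled libraries where they were called. Of 17 maltase, amylase and lysosomal alpha-mannosidase genes tested, 7 were higher and none lower (background 6% called), and the median log2 fold change was 1.66 against 0.02 for all genes. Library 1 of svb RNAi was far above libraries 2 and 3. The list summed to between 975.3 and 9975.9 CPM in the svb RNAi-labelled libraries and between 657.24 and 1067.3 CPM in SvbACT. The median ratio was 3.00 log2 units in pair 1, 0.46 in pair 2 and 1.34 in pair 3. Without the pair in the model 3 of the 17 were called, without library 1 of svb RNAi 4, without its library 3 or library 1 of SvbACT 3, and without pair 1 the median was 0.80 with 3 called.

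Lysosomal alpha-mannosidases, which trim mannose from glycans, split within one gene cluster on chromosome arm 2L. LManIV (2L:8769159-8772344) had 183, 6.24 and 22.8 CPM in the svb RNAi-labelled libraries and 2.21, 0.566 and 1.06 CPM in those of SvbACT (log2 fold change 5.21, SE 0.78, adjusted p 0.00232). LManIII (2L:8765273-8768710) had 1021, 78.7 and 117 CPM against 38.8, 18 and 29.8 CPM (log2 fold change 3.05, SE 0.77, adjusted p 0.0358, 0.0980 without the pair). LManVI (2L:8777661-8781252) had 3606, 196 and 375 CPM against 194, 58.0 and 154 CPM (log2 fold change 2.55, SE 0.63, adjusted p 0.0345, 0.101 without the pair). In all 3 genes, which were chosen among those without overlap of the groups, library 1 was the highest of each group. LManV (2L:8772946-8776263; named after its values were seen), which lies between LManIV and LManVI, was not called: it had 287, 13.5 and 35.6 CPM against 122, 33.7 and 77.6 CPM (log2 fold change -0.15, SE 0.60, adjusted p 0.912).

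Amylases, which cut starch, and maltases, which cut the resulting sugars, followed. Amy-d had 117, 20.9 and 21.1 CPM in the svb RNAi-labelled libraries and 3.99, 2.94 and 1.06 CPM in those of SvbACT (log2 fold change 3.91, SE 0.38, adjusted p 8.47e-05). The control libraries held 4.94 to 31.6 CPM. Its near-identical copy Amy-p was higher as well (mean 144 ± 146 against 36.2 ± 6.79 CPM, SD, n = 3; log2 fold change 1.48, adjusted p 0.0327, 0.175 without the pair), and how reads matching both copies were assigned is not given in the sources used here. Mal-A6 had 357, 105 and 146 CPM against 71.6, 50.3 and 51.7 CPM (log2 fold change 1.73, SE 0.34, adjusted p 0.0106). Mal-A1 had 2201, 265 and 317 CPM against 200, 133 and 102 CPM (log2 fold change 2.14, SE 0.43, adjusted p 0.0125, 0.11 without the pair). The groups did not overlap for either maltase, and library 1 was again the highest on both sides. Jonah and trypsin proteases, the other large class of gut digestive enzymes, had a median of -0.69 with 1 of 27 called lower, 3.7% against 4.32% of all genes. Jon66Ci had 10.5, 3.86 and 2.28 CPM against 31.6, 18.2 and 15.1 CPM (log2 fold change -2.14, adjusted p 0.00619, 0.201 without the pair). The list median was 0.20 in pair 1, -1.35 in pair 2 and -0.89 in pair 3, so it did not hold in every pair. It was -0.32 without the pair in the model and -0.22 without library 2 of SvbACT, and -1.08 without library 1 of svb RNAi, where 4 were called lower.

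Genes of enteroendocrine cells, the hormone-secreting cells of the gut, were higher in the svb RNAi-labelled libraries where they were called. Of 12 peptide and regulator genes tested 3 were higher and none lower, against 1.69% of all genes higher. The median log2 fold change was 0.76. pros, the homeodomain factor that specifies these cells, had 92.3, 111 and 96.6 CPM against 39.7, 54.0 and 35.9 CPM (log2 fold change 1.22, SE 0.22, adjusted p 0.00652), and the groups did not overlap. The peptide gene Orcokinin had 79.8, 128 and 29.1 CPM against 17.0, 13.2 and 8.72 CPM (log2 fold change 2.49, SE 0.57, adjusted p 0.0230, 0.0612 without the pair). The peptide gene CCHa1 had 27.6, 62.6 and 52.1 CPM against 22, 17.5 and 12.3 CPM (log2 fold change 1.32, adjusted p 0.0465, 0.126 without the pair). Control libraries held 51.2 to 125 CPM of pros and 36.9 to 156 CPM of CCHa1, overlapping the svb RNAi-labelled libraries, and 5.65 to 27.7 CPM of Orcokinin, below all of them. The peptides Tk and Dh31, at log2 fold changes of -0.02 and -0.38, and AstC, at 0.58, were not called.

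The machinery that makes and releases peptide hormones was examined beside them. Of 16 genes tested 3 were higher and 1 lower (6% of all genes were called), with a median of 0.71. Cadps, which primes dense-core vesicles for release, had 56.4, 79.7 and 81.2 CPM against 23.8, 17.7 and 27.4 CPM (log2 fold change 1.64, SE 0.24, adjusted p 0.00211). amon, the convertase that cleaves prohormones, had 17.5, 33.7 and 31.0 CPM against 10.0, 10.1 and 4.04 CPM (log2 fold change 1.68, adjusted p 0.0422, 0.0706 without the pair), and the vesicle calcium sensor Syt1 had 9.12, 15.3 and 17.7 CPM against 4.43, 6.23 and 3.83 CPM (log2 fold change 1.47, adjusted p 0.0129, 0.0516 without the pair). Pal1, a lyase of peptide amidation, was lower, at 10.1, 11.7 and 8.26 CPM against 19.2, 21.3 and 19.6 CPM (log2 fold change -0.99, adjusted p 0.0265). In control amon lay at 25.8 to 77.6 CPM and Syt1 at 14.5 to 31.7 CPM, overlapping the svb RNAi-labelled libraries and above every SvbACT library. SvbREP libraries held 4.25 to 10.3 CPM of amon and 3.60 to 6.23 CPM of Syt1. Cadps lay at 23.4 to 44.9 CPM in control, below every svb RNAi-labelled library, and Pal1 at 18.4 to 21.4 CPM. The peptide list's median was -0.30 in pair 1, 1.32 in pair 2 and 1.42 in pair 3, and 0 to 5 of its genes were called when a library or pair was left out. In sorted cells measured in bulk, a different number of cells of a type and a different amount of RNA per cell cannot be told apart. Of the neuron markers, elav (109 ± 15.5 against 120 ± 35.2 CPM) and brp (36.5 ± 18 against 15.0 ± 4.40 CPM, adjusted p 0.0937) were not called, and the part of other cells in these results was not tested.

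Progenitor genes were lower in the svb RNAi-labelled libraries where they were called. Of 8 tested 3 were lower and none higher (4.32% of all genes were lower), and the median log2 fold change was -0.53. esg, the Snail-family factor that keeps midgut progenitors undifferentiated, had 797, 812 and 650 CPM against 1815, 986 and 1196 CPM (log2 fold change -0.80, SE 0.17, adjusted p 0.0174). The Notch target E(spl)m3-HLH had 282, 332 and 249 CPM against 699, 443 and 399 CPM (log2 fold change -0.81, SE 0.18, adjusted p 0.0181, 0.0583 without the pair). zfh2, a zinc-finger homeodomain factor, had 1008, 983 and 971 CPM against 2393, 1163 and 1446 CPM (log2 fold change -0.72, adjusted p 0.0351, 0.0764 without the pair). In each of these genes the groups did not overlap and SvbACT library 1 was the highest. Without SvbACT library 1, without svb RNAi library 1 or without svb RNAi library 3 none of the 8 was called, and the median stayed below 0 at -0.38, -0.47 and -0.49, and without SvbACT library 3 1 was called. Sox21a, a progenitor transcription factor, did not share the direction of the others (590 ± 228 against 544 ± 120 CPM, log2 fold change 0.10, adjusted p 0.835).

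Of 8 enterocyte identity genes none was called, and 4 had a log2 fold change above 0 and 4 below. mex1, a gut gene of enterocytes, had the smallest p, at 16.3, 15.6 and 11.4 CPM against 27.3, 19.0 and 27 CPM (log2 fold change -0.73, adjusted p 0.0920). The groups did not overlap. GATAe and Hnf4, transcription factors of the differentiated gut, had log2 fold changes of -0.37 (adjusted p 0.186) and -0.08 (adjusted p 0.827). Of 7 midgut regional transcription factors none was called either, and bab2 came closest (log2 fold change -1.43, adjusted p 0.119). The smallest adjusted p of the JAK/STAT list was 0.318, for the transcription factor Stat92E, with 7 genes tested and none called.

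The EGF receptor pathway drives growth of midgut cells, and its genes were listed together with those of Notch and Hippo. A ligand gene, the receptor gene and an inhibitor gene of this pathway were the called members of that list. Of 20 Notch, EGF receptor and Hippo pathway genes 3 were lower and none higher, against 4.32% of all genes lower. The list median was -0.38, with 17 of 20 below 0. vn, a secreted ligand of the receptor, had 37.4, 68.5 and 94.3 CPM against 181, 166 and 137 CPM (log2 fold change -1.31, SE 0.27, adjusted p 0.0142). The receptor gene Egfr had 920, 810 and 852 CPM against 1793, 1066 and 1307 CPM (log2 fold change -0.67, SE 0.17, adjusted p 0.0340, 0.0988 without the pair). sty, an inhibitor of the pathway, had 440, 476 and 426 CPM against 1206, 592 and 785 CPM (log2 fold change -0.91, SE 0.19, adjusted p 0.0142). No library of one group reached into the other in any of the 3. Control libraries held 139 to 234 CPM of vn, 1193 to 1402 CPM of Egfr and 945 to 1123 CPM of sty. All of these lay above every svb RNAi-labelled library. Without library 1 of either group none of the 20 was called, with medians of -0.25 and -0.28, and without library 3 of svb RNAi 1 was.

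The steps that turn Svb into an activator were represented by the ligase Ubr3 and by ecdysone-response genes. Ubr3 itself did not pass the test (286 ± 9.38 against 269 ± 7.94 CPM, log2 fold change 0.09, adjusted p 0.717), nor did the ecdysone receptor gene EcR (log2 fold change -0.04, adjusted p 0.905). Of 9 genes tested 3 were lower, against 4.32% of all genes. The list median was -0.17, or -0.02 after scaling by library totals. The ecdysone-response factor br had 102, 52.2 and 102 CPM against 313, 158 and 124 CPM (log2 fold change -1.22, SE 0.31, adjusted p 0.0352, 0.0780 without the pair). The nuclear receptor gene ftz-f1 had 110, 126 and 137 CPM against 286, 177 and 197 CPM (log2 fold change -0.80, SE 0.16, adjusted p 0.0133), and Eip75B, another nuclear receptor gene, was lower too (log2 fold change -0.68, adjusted p 0.0474, 0.0909 without the pair). Without library 1 of either group, or without library 3 of svb RNAi, none of these was called. Of 12 Svb effector genes of the embryonic epidermis 3 could be tested and none was called: sn, an actin-bundling protein, had 12.7, 6.58 and 11.4 CPM against 9.30, 2.60 and 6.59 CPM (log2 fold change 0.79, adjusted p 0.274), and the groups overlapped.

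**Figure D3:**
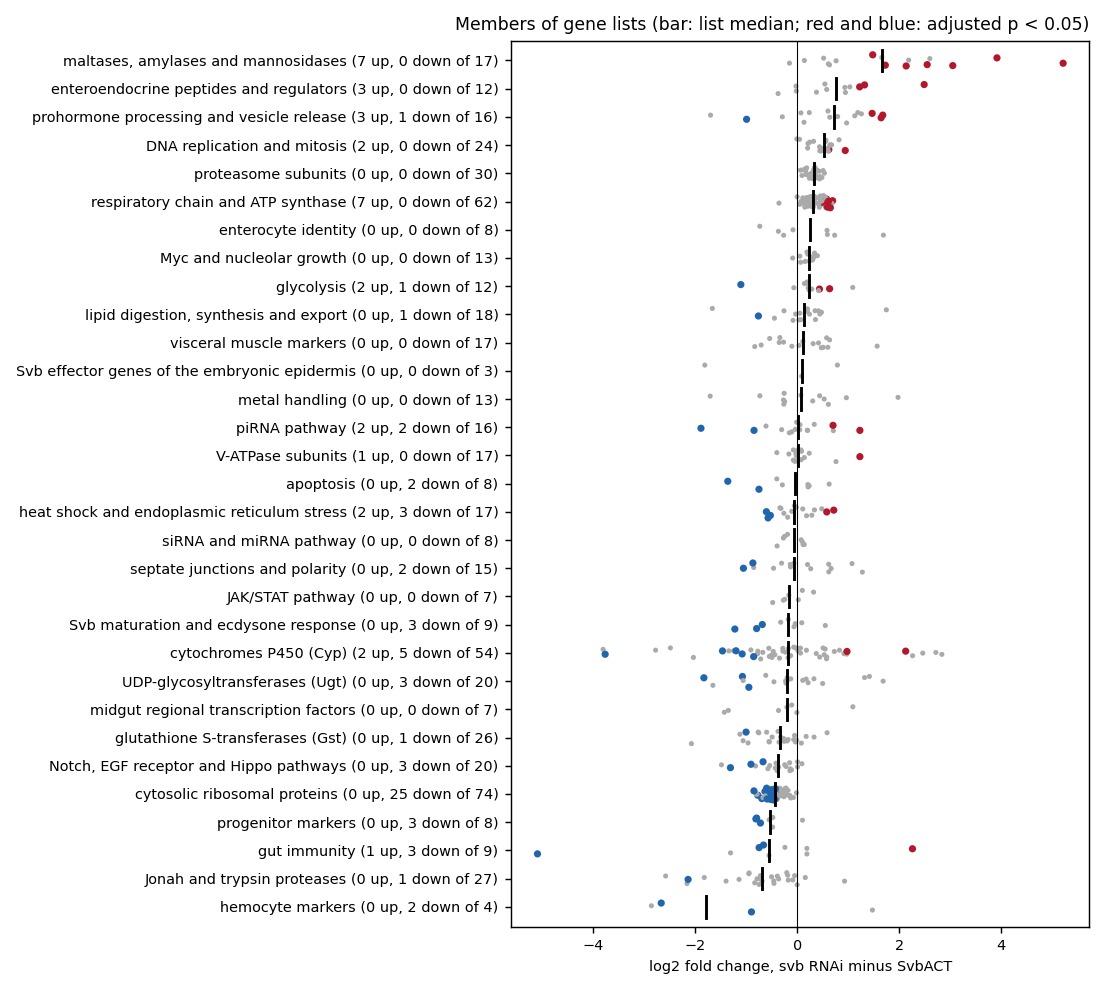
Log2 fold change (svb RNAi minus SvbACT) of each tested member of the gene lists with at least 3 tested members, ordered by the list median (black bar). Red and blue points are members higher and lower at adjusted p under 0.05, and the numbers beside each list count them. Maltases, amylases and mannosidases lie furthest to the right, and the ribosomal proteins form a narrow band to the left of 0.

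Cytosolic ribosomal protein genes shared a direction. Of 74 tested 25 were lower and none higher, against 4.32% of all genes lower. The log2 fold change was below 0 in 74 of 74, with a median of -0.44 against 0.02 for all genes. These genes were measured in the same libraries and cannot be counted as independent. RpS3 had 884, 1181 and 1442 CPM against 1700, 1778 and 1869 CPM (log2 fold change -0.63, SE 0.14, adjusted p 0.0171), and the groups did not overlap. RpL22 had 842, 1117 and 1148 CPM against 1299, 1666 and 1467 CPM (log2 fold change -0.52, SE 0.11, adjusted p 0.0139). RpS15 was lower as well (log2 fold change -0.56, adjusted p 0.0208), as was RpL23A (log2 fold change -0.60, adjusted p 0.0197), whose groups overlapped. The median was -0.63 in pair 1, -0.33 in pair 2 and -0.31 in pair 3. None of the 74 was called without the pair, nor without library 1 of either group, 1 without library 3 of either group and 2 with scaling by library totals, with medians of -0.43, -0.36, -0.33, -0.49, -0.47 and -0.28 in that order.

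Respiratory chain and ATP synthase genes of mitochondria went the other way. Of 62 tested 7 were higher and none lower (1.69% of all genes were higher), with a median of 0.32 and 2 below 0. ND-24, a subunit of complex I, had 65.9, 89.5 and 84.9 CPM against 35.1, 62.5 and 53.2 CPM (log2 fold change 0.69, SE 0.15, adjusted p 0.0163). UQCR-C1, of complex III, had 375, 410 and 430 CPM against 187, 348 and 293 CPM (log2 fold change 0.59, adjusted p 0.0271). The groups did not overlap for either gene, and SvbACT library 1 was the lowest library. The median was 0.37, 0.38 and 0.29 in pairs 1, 2 and 3 and 0.48 with library totals, under which 18 were called, while none was called without the pair, without library 1 of either group or without library 3 of svb RNAi, and 1 without library 3 of SvbACT. Proteasome subunits had a median of 0.34 with 30 of 30 above 0 and none called. Its pairs gave 0.63, 0.02 and 0.33, so pair 2 showed next to no difference.

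**Figure D4:**
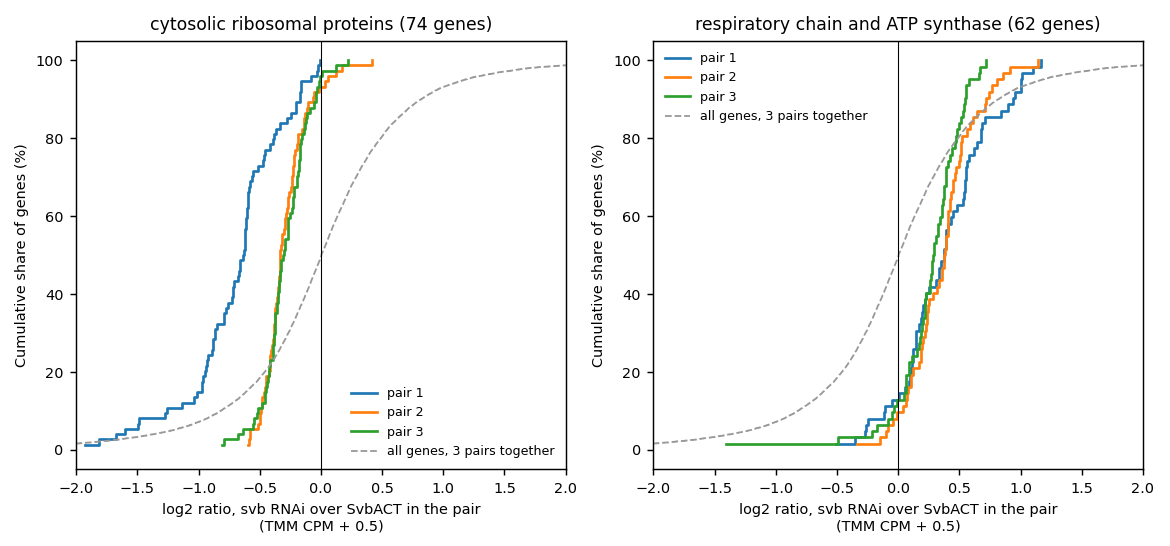
Cumulative share of genes by log2 ratio of TMM CPM (+ 0.5), svb RNAi over SvbACT, in each of the 3 pairs, for 74 cytosolic ribosomal proteins (left) and 62 respiratory chain and ATP synthase genes (right). The dashed line shows all genes tested, the 3 pairs together. The ribosomal curves lie to the left of it around the middle, furthest in pair 1 (median -0.63), and the respiratory curves lie to the right with medians of 0.29 to 0.38.

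Lists of growth and energy use differed in their share of calls. Of 24 DNA replication and mitosis genes 2 were higher (8.33% called, against 6% of all genes), with a median of 0.52: the cyclin gene CycE had 55.1, 73.0 and 89.7 CPM against 27.3, 45.4 and 40.6 CPM (log2 fold change 0.94, adjusted p 0.0352, 0.0856 without the pair). PCNA, the sliding clamp of replication, had 61.8, 66.2 and 70.6 CPM against 35.4, 55.9 and 39.1 CPM (log2 fold change 0.62, adjusted p 0.0491, 0.121 without the pair). Control libraries held 22 to 32.5 CPM of CycE and 22 to 26.9 CPM of PCNA, below every svb RNAi-labelled library, and those of PCNA below every SvbACT library too. Neither gene was called without library 1 or library 3 of either group. Of 12 glycolysis genes 2 were higher and 1 lower, 25% called against 6% of all genes. Hex-A, a hexokinase, was lower at 207, 250 and 163 CPM against 651, 391 and 327 CPM (log2 fold change -1.10, SE 0.22, adjusted p 0.0115). Pfk, the phosphofructokinase, and Gapdh2 were higher (log2 fold changes 0.64 and 0.44, adjusted p 0.0443 and 0.0387, 0.0917 and 0.159 without the pair). SREBP, a regulator of lipid synthesis, was the 1 called gene of 18 lipid genes (5.56%), at 208, 300 and 211 CPM against 416, 422 and 377 CPM (log2 fold change -0.76, SE 0.15, adjusted p 0.0100). Its groups did not overlap, and control lay with SvbACT at 447 to 466 CPM.

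Genes of gut defence and detoxification held calls in both directions. Over all genes 6% were called, and 28.1% of the calls were higher. Of 9 gut immunity genes 3 were lower and 1 higher: besides Irc, the bacterial peptidoglycan receptor PGRP-LC had 131, 144 and 113 CPM against 244, 171 and 205 CPM (log2 fold change -0.66, SE 0.15, adjusted p 0.0225). pirk, a negative regulator of the same pathway, was lower within pairs although the groups overlapped (138, 168 and 62.4 CPM against 271, 201 and 136 CPM, log2 fold change -0.75, adjusted p 0.0383, 0.334 without the pair). PGRP-SC1a, an amidase that degrades peptidoglycan, was the higher one, also with overlap (19.2, 5.90 and 3.42 CPM against 5.76, 0.340 and 0.851 CPM, log2 fold change 2.26, adjusted p 0.0237, 0.285 without the pair). Of 54 cytochrome P450 genes, which oxidise foreign compounds, 5 were lower and 2 higher, with a median of -0.18 that was -0.03 with library totals. Cyp6a17 was furthest down, at 1.52, 1.59 and 3.99 CPM against 31.4, 28.4 and 27 CPM (log2 fold change -3.76, SE 0.38, adjusted p 0.000117), with 10.7 to 15.1 CPM in control, between the groups. Cyp9f2, Cyp6a9 and Cyp6w1 had log2 fold changes of -1.08, -1.20 and -1.46 (adjusted p 0.00665, 0.0105 and 0.0253, the last 0.0671 without the pair).

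Of 20 UDP-glycosyltransferases, which conjugate sugars to foreign compounds, 3 were lower and none higher, against 4.32% of all genes lower. Ugt303B1 had 64.2, 70.8 and 41.0 CPM in the svb RNAi-labelled libraries and 135, 122 and 113 CPM in those of SvbACT (log2 fold change -1.07, SE 0.17, adjusted p 0.00368). Ugt49B1 had 9.88, 2.38 and 5.98 CPM against 16.4, 19.9 and 25.1 CPM (log2 fold change -1.83, adjusted p 0.0296, 0.0835 without the pair), with at most 1.30 CPM in control. For both genes the groups did not overlap, and for Ugt49B1 both transgenic groups lay above control. GstE1 was the 1 called gene of 26 glutathione S-transferases, 3.85% of them (11.2, 19.4 and 12.5 CPM against 21.7, 37.1 and 27.4 CPM, log2 fold change -1.003, adjusted p 0.0308, 0.125 without the pair).

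Small RNA genes held calls in both directions. piwi, a nuclear Argonaute that silences transposons in the gonad, had 19.4, 23.4 and 20.8 CPM in the svb RNAi-labelled libraries and 72.8, 96.0 and 66.6 CPM in those of SvbACT (log2 fold change -1.89, SE 0.28, adjusted p 0.00232). Control held 14.3 to 35.8 CPM and SvbREP 17.0 to 27.7 CPM, so SvbACT was the genotype apart. del, which with Rhino marks piRNA source loci in the germline, was lower too (37.6, 34.2 and 27.3 CPM against 74.4, 52.6 and 53.4 CPM, log2 fold change -0.85, adjusted p 0.00798, 0.0583 without the pair). AGO3, a cytoplasmic Argonaute of the same pathway, was higher, at 47.5, 69.8 and 64.7 CPM against 27.5, 26.3 and 24.9 CPM (log2 fold change 1.23, SE 0.28, adjusted p 0.0218), as was the helicase gene armi (log2 fold change 0.70, adjusted p 0.0438, 0.113 without the pair). The other 12 of 16 piRNA pathway genes tested were not called, so 25% were, against 6% of all genes. None of 8 siRNA and miRNA pathway genes was called. AGO1, the Argonaute of miRNAs, had the smallest p among those 8 (645, 724 and 601 CPM against 1141, 747 and 747 CPM, log2 fold change -0.40, adjusted p 0.150). Exons of piwi share positions with SCAR and those of del with pths, each on the opposite strand.

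Cell death and polarity genes held 2 calls each, all lower, beside list medians of -0.04 and -0.07 (0.12 and 0.10 with library totals). Over all genes 4.32% were called lower. The cell death gene hid had 13.1, 11.7 and 5.41 CPM against 43.8, 18.9 and 21.1 CPM (log2 fold change -1.36, SE 0.29, adjusted p 0.0163, 0.148 without the pair), and the initiator caspase gene Dronc had 28.5, 41.8 and 33.3 CPM against 63.8, 58.3 and 53.0 CPM (log2 fold change -0.75, SE 0.17, adjusted p 0.0249). They were the 2 called of 8 apoptosis genes. Of 15 septate junction and polarity genes 2 were lower: baz, which organises apical polarity, had 440, 500 and 482 CPM against 1006, 767 and 841 CPM (log2 fold change -0.87, SE 0.15, adjusted p 0.00652). crb, an apical membrane determinant, had 55.1, 57.2 and 34.7 CPM against 140, 82.3 and 93.1 CPM (log2 fold change -1.05, adjusted p 0.00815, 0.0556 without the pair). All 4 genes had groups that did not overlap.

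Of 17 heat shock and endoplasmic reticulum stress genes 3 were lower and 2 higher, 29.4% called against 6% of all genes. The list median was -0.06, or 0.10 with library totals. Hsp26 and Hsp68, heat-inducible chaperones, were lower within pairs while their groups overlapped (log2 fold changes -0.60 and -0.53, adjusted p 0.0158 and 0.0197, 0.394 and 0.401 without the pair). The co-chaperone DnaJ-1 also had lower levels (log2 fold change -0.57, adjusted p 0.0212), and the mitochondrial chaperone Hsp60A and the endoplasmic reticulum chaperone Gp93 were higher (log2 fold changes 0.58 and 0.72, adjusted p 0.0469 and 0.0435). DnaJ-1, Hsp60A and Gp93 were not called without the pair either (adjusted p 0.262, 0.323 and 0.0992), and none of the 17 was called without library 1 or library 3 of either group.

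Of 4 tested genes of the hemocyte list 2 were lower in the svb RNAi-labelled libraries, against 4.32% of all genes. The scavenger receptor gene crq had 130, 122 and 100 CPM against 265, 178 and 214 CPM (log2 fold change -0.90, SE 0.18, adjusted p 0.0119). The collagen gene vkg had 0.950, 1.59 and 3.99 CPM against 13.6, 8.60 and 11.5 CPM (log2 fold change -2.67, SE 0.62, adjusted p 0.0243, 0.0988 without the pair). The list summed to 130.44 to 158.08 CPM in the svb RNAi-labelled libraries and 204.36 to 295.5 CPM in SvbACT, with crq the largest part, and Hml, a defining hemocyte marker, was in the table but below the filter. The other tested genes went in opposite directions and were not called: the collagen gene Col4a1 had a log2 fold change of -2.86 (adjusted p 0.0750), and Ppn had one of 1.47 (adjusted p 0.456). Ppn had 1.52, 4.77 and 47.9 CPM in the svb RNAi-labelled libraries and 0.886, 8.49 and 3.83 CPM in SvbACT, so its groups overlapped and library 3 of svb RNAi was the highest. Exons of crq share positions with ex on the opposite strand.

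The genes called lower had a higher median level and a longer median exon length than all genes tested. Their median level was 136 CPM, against 46.5 CPM for genes called higher and 27 CPM for all genes tested. Their median exon length was 3181.5 bases, against 2262 bases for genes called higher and 2121 bases for all. Genes with more counts are more easily called at a small difference, and genes were not matched by level here. By chromosome arm, the share of tested genes called higher was 0.722% on X and 1.43% to 2.41% on the others, and the share called lower was 3.38% on 2L to 5.02% on 2R.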

How the data were processed

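RNA was measured by 100 nt single-read sequencing of 12 libraries. The authors deposited whole-number counts per gene for 8802 genes. Per the submitters' processing notes, FastQC 0.11.5, STAR 2.5.2b, HTSeq 0.6.0, edgeR and the dm6 build were used; strand setting and gene filter are not given in the sources used here. Coordinates come from the Ensembl BDGP6 annotation of that assembly; 8686 identifiers matched a symbol.

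Counts were fitted in edgeR 4.0.16 (R 4.3.3), quasi-likelihood, two-sided, TMM scaling, filterByExpr with a minimum count of 10, on all 12 libraries with genotype and the number in the description as a block; Benjamini-Hochberg adjusted p under 0.05 over 8296 genes. SE come from the F statistic. Deviations of same-numbered libraries correlated at 0.336, 0.216 and 0.295 across genes; the numbers in the titles, which differ for svb RNAi, gave -0.260 to -0.098. All replicate pairs differed beyond sampling noise (chi-square per degree of freedom 17.1 or more). Replicates were made on different days. The p-values measure the spread between libraries that is left after the block for the number. They do not measure the whole spread between such preparations, which the fit without the block keeps. The biological coefficient of variation was 0.222. On simulated data the fit recovered 65% of genes changed by 1 log2 unit and 93% of those changed by 2, with 8 false calls. Those counts were drawn from the fitted model itself, and only genes with a mean of at least 5 CPM were changed. Their spread followed the level of a gene alone, without shifts of single libraries. These shares therefore give no error rate for the real data. Intervals and floors (3 counts) cover counting error only.

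Named genes are ovo, the 12 highest and 12 lowest called genes with a mean of at least 5 CPM, groups that do not overlap and 1 direction in 3 of 3 pairs, and in each list up to 4 called members with the smallest p, or the member with the smallest p where none was called. Other genes were named after their values were seen. Members and lists were chosen with earlier results of these data known. Alternatives were other scalings, filters, tools (DESeq2 1.42.0), blocks and left-out libraries.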

Additional observations from a re-analysis of the deposited data

How the results depend on the processing

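The count of 498 called genes depended most on the replicate block and on single libraries. It was 211 without the block (38 higher, 173 lower), 168 with the block from the title numbers (29 and 139), 317 from the 6 libraries alone with the block (216 lower) and 131 from them without it (27 and 104). Library totals gave 274 higher and 218 lower, and DESeq2 with the block gave 758 (232 higher). Leaving out a library or a pair gave 84 to 656 calls, 14 to 209 higher and 70 to 453 lower; without svb RNAi library 1 and library 3 there were 170 and 128, and without SvbACT library 1 and library 3 there were 171 and 222. No called gene turned direction under any of the 18 alternatives. All 12 of the lowest and 6 of the 12 highest leading genes were called in each alternative that tested them (blanks, Irc, nAChRalpha6 and CngB were not tested with a mean of at least 10 CPM); LManIV missed once (adjusted p 0.0583), and LManIII, LManVI, Orcokinin, CngB and CG18765 missed more often. Over all alternatives, 21 of the 81 called named genes kept their call throughout. The leading genes were chosen from these same libraries for being called, with groups that do not overlap and 1 direction in the pairs. Their kept calls are therefore no independent support. The 12 lowest include ovo, whose counts do not separate the resident gene from a transgene. Among uncalled genes the log2 fold change of Fbp1 ran from -1.11 to 0.068 without a library or pair, and that of serp from -0.81 to 2.27. The cause was not tested. Depth limits genes near the floor of 0.34 to 0.854 CPM, where a fold is a bound or has a wide interval.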
